A study of Mus musculus with 15 samples.

Results

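The genes described here are Lama5, the alpha 5 chain of laminin (Entrez gene 16776), and Mmp13, matrix metalloproteinase 13 or collagenase-3 (Entrez gene 17386). They were taken by symbol from the platform annotation, with symbols updated through the Entrez number, and this gave 1 probe each, so 2 of 20205 probes and 2 of 9834 named genes. The pair was proposed with results of the same arrays known, so all their values for treatment are given as a description, without a test. With 1 probe per gene, no second probe could check either of them.

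RNA from a treated mouse lymphoid embryonic stem (ES) cell line was hybridised together with RNA from that line without treatment on 15 two-colour arrays. The treated RNA carried Cy5 on the 8 arrays titled 1 to 8 and Cy3 on the 7 dye-swapped arrays titled 9 to 15. No treatment, dose, time, genotype or strain is named in the labels, and separate cultures are not named either, so the arrays may be technical repeats and the errors below measure their spread only. The labels' protocols speak of organs and of pooled control animals, which are not a cell line; the channel names were followed. The values hold ratios and no levels, so whether the line expresses markers of ES or lymphoid cells could not be read from them, nor can fewer cells of a type be told apart from less RNA per cell. All signs are those of the deposited log2 ratio. It is likely treated over untreated on every array: the 1999 placeholder values for an empty channel were all above 0 with the treated RNA in Cy5 (1117 values) and all below 0 on the swaps (882 values), the pattern of a ratio of Cy5 over Cy3 in which the swaps had been turned before deposit. The inverse direction cannot be told apart from the values alone.

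Laminins are trimers of an alpha, a beta and a gamma chain that assemble into the sheet of the basement membrane, where collagen IV, nidogen and perlecan join them and integrins and dystroglycan on the cell surface bind them. The alpha 5 chain is the widespread alpha chain of adult basement membranes, and laminins that hold it are used as a culture surface for pluripotent cells. Mmp13 is a secreted zinc protease that cuts fibrillar collagens, is made as an inactive proenzyme, is held in check by the TIMP inhibitors, and is known from cartilage, bone and remodelling matrix, with AP-1 and RUNX2 as its classical transcription factors.

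The start regions of both genes are shown because they differ in matches for AP-1 and RUNX, the factors that this background names. Genes of AP-1 are described further on. The other motifs marked below are not from this background. They are the 250 bases before the start in RefSeq's annotation of GRCm38.p6, 5′ to 3′, for Mmp13 at chr9:7272264-7272513 on the plus strand and for Lama5 at chr2:180225860-180226109 on the minus strand. Capitals mark, in Mmp13, matches to the AP-1 motif TGANTCA, the loose RUNX pattern ACCNCA and the TATA motif TATAAA. In Lama5 they mark matches to the Sp1 motif GGGCGG and the cAMP response core TGACGT. Each was searched on both strands, N is any base, and no match overlaps another.
Mmp13: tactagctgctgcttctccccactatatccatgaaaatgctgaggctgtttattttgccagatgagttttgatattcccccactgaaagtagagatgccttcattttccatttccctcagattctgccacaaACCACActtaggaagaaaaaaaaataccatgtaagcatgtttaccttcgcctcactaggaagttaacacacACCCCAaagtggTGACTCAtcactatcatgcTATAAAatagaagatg
Lama5: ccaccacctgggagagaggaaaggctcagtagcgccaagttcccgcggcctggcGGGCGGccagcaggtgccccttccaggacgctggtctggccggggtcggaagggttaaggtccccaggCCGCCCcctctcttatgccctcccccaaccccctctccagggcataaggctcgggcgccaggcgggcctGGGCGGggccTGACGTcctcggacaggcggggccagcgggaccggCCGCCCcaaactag
The Mmp13 window held 1 AP-1 match, which begins 35 bases before the start, and 1 TATA match at 16 bases. It held 2 matches to the RUNX pattern, ACCACA at 118 and ACCCCA at 47 bases. As the pattern leaves a base free, ACCCCA is not shown to be a RUNX motif. Of 32851 such windows in the table, 6.75% held the AP-1 motif, 40.1% the loose RUNX pattern and 12.4% the TATA motif. The Lama5 window held none of these 3 motifs, but 4 Sp1 matches and 1 TGACGT at 49 bases, which 32.7% and 6.47% of the windows held. Its GC content was 72.4%, against 40.4% for Mmp13 and a median of 52.4%. A match is a stretch of letters and not a site shown to be bound.

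Lama5 lay below 0 on 13 of 15 arrays. Where Cy5 marked the treated RNA, its log2 ratio had a lowest value of -0.43 (array 2), a median of -0.23 and a highest value of 0.032 (array 5), with array 6 at 0.001. On the dye swaps the lowest value was -0.89 (array 15), the median -0.27 and the highest -0.17 (array 11). The orientations overlapped: 5 of the 8 Cy5 values lay within the range of the swaps and 5 of the 7 swap values within that of the Cy5 arrays. The lowest value, on array 15, was followed by -0.52 on array 9. The mean was -0.20 ± 0.15 (SD, n = 8) with the treated RNA in Cy5 and -0.39 ± 0.25 (SD, n = 7) with it in Cy3.

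Mmp13 was also below 0 on 13 of 15 arrays, though the arrays at the extremes were others. Where Cy5 marked the treated RNA, its lowest value was -1.03 (array 2), its median -0.51 and its highest 0.002 (array 4). On the swaps the lowest was -0.58 (array 13), the median -0.23 and the highest 0.002 (array 12). The low values thus lay in both orientations, and the orientations overlapped. The mean was -0.46 ± 0.35 (SD, n = 8) in Cy5 and -0.27 ± 0.18 (SD, n = 7) in Cy3. For comparison, 0.525% of the 9720 genes tested were below 0 on at least 13 arrays. As the genes were chosen on these ratios, nothing is read from that share.

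**Figure D1:**
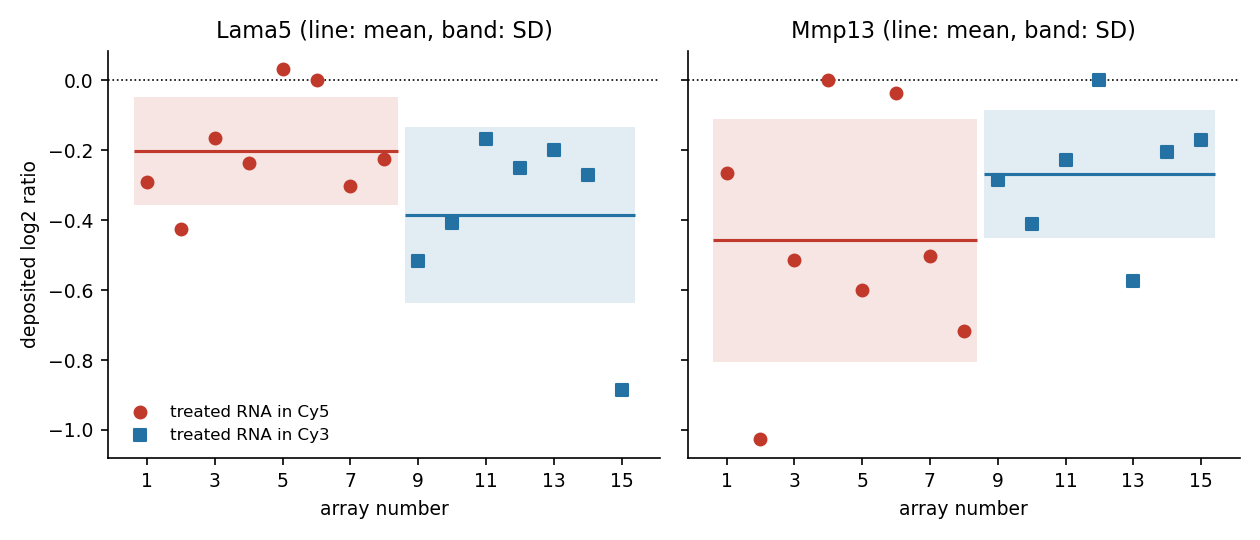
Deposited log2 ratio of Lama5 (left) and Mmp13 (right) on each of the 15 arrays, with the treated RNA in Cy5 (red circles) or Cy3 (blue squares); lines are the means and bands the SD of each orientation. Both genes lie below 0 on 13 arrays, with the lowest Lama5 value on array 15 (-0.89) and the lowest Mmp13 value on array 2 (-1.03).

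The average over the orientations, named treatment estimate here, was fitted with limma beside the dye effect, which is 0.5 times the difference of the orientations (treated in Cy5 minus treated in Cy3). The treatment estimate of Lama5 was -0.29 ± 0.06 (SE, n = 15 arrays), a ratio 18.4% under 1, and that of Mmp13 was -0.36 ± 0.08, a ratio 22.2% under 1. Over all genes limma called 4 of 9720, or 0.0412%, at a Benjamini-Hochberg adjusted p under 0.05, and neither Lama5 nor Mmp13 was among them. The count fell to 0 when array 10 was left out and to 2 when array 11 was, and it was 7 without array 6. In the order of estimates as deposited, 216 genes (2.22%) lay lower than Lama5 and 118 (1.21%) lower than Mmp13; with the dye swaps turned, 73.3% and 27.8% would. Once the standard error is counted in, by the moderated t of the deposited direction, 5 genes lay below Lama5 and 6 below Mmp13. As the genes were chosen on these ratios, nothing is read from these ranks. Lama5 varied little over arrays, with an SD of 0.22 where the median gene had 0.37 and 10.8% of genes had less; 28.8% of genes varied less than Mmp13 (SD 0.29).

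For neither gene did the dye effect pass limma's threshold, which 2.61% of genes did. It was 0.092 ± 0.060 (SE) for Lama5, with a 95% interval from -0.034 to 0.22, and -0.095 ± 0.075 for Mmp13, from -0.25 to 0.065. The intervals do not show that the orientations are alike. If the deposited swaps had not been turned, the treatment and dye components would trade places: Lama5 would then be at 0.092, on the other side of 0, and Mmp13 at -0.095.

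Because arrays differed in spread (SD of all probes from 0.35 to 0.82), each value was also placed among all probes of its array. Lama5 lay between the percentiles 3.57 (array 15) and 52.4 (array 5), with a median of 23.0, and under the 25th on 10 arrays. Mmp13 lay between 1.24 (array 13) and 51.1 (array 12), with a median of 18.6, and likewise under the 25th on 10 arrays. The large negative log2 ratio of Lama5 on array 15 came on an array with an SD of 0.74, and lay at -1.21 SD from that array's median. The value of Mmp13 on array 13, only -0.58, came on the narrowest array (SD 0.35) and lay at -1.65 SD from its median. None of the 30 values was a placeholder or had the form of a dim spot (a ratio of whole numbers up to 6).

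**Figure D2:**
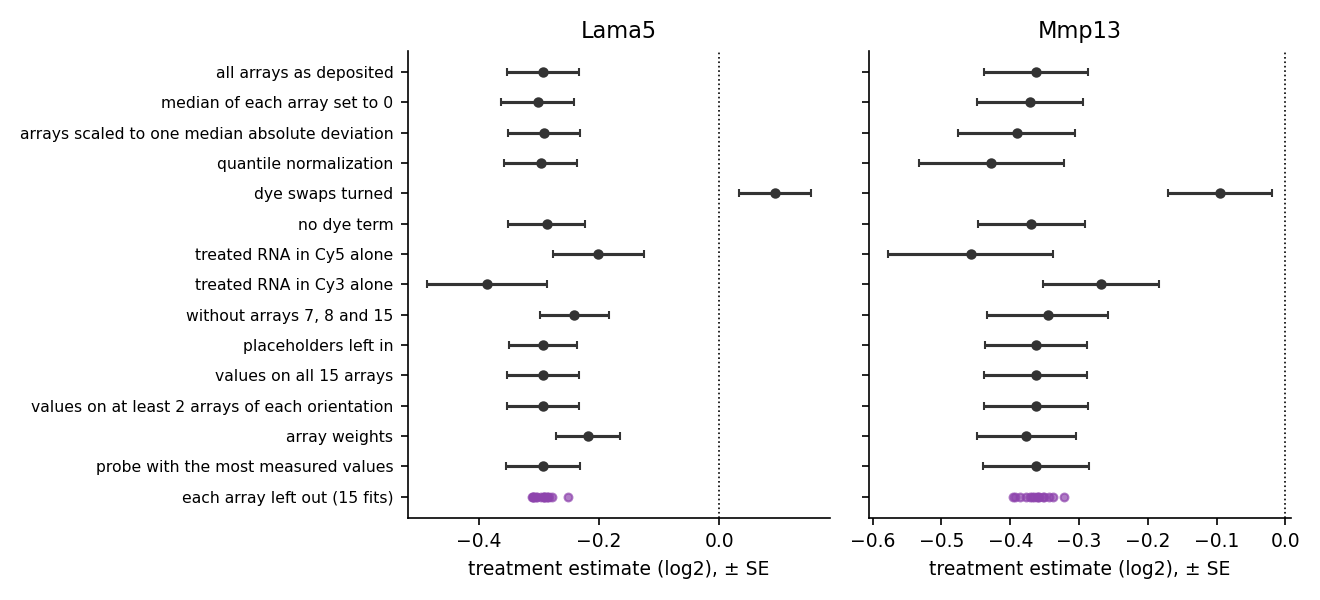
Treatment estimate (log2) with its SE for Lama5 (left) and Mmp13 (right) with all arrays as deposited and under each other setting; the bottom row holds the estimates with each of the 15 arrays left out. With single arrays left out the estimates stay between -0.31 and -0.25 for Lama5 and between -0.40 and -0.32 for Mmp13; with the dye swaps turned they are 0.092 and -0.095.

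Leaving out any single array kept both estimates below 0. The estimate nearest to 0 came without array 15 for Lama5 (-0.25 ± 0.05, SE) and without array 2 for Mmp13 (-0.32 ± 0.07). Without arrays 7, 8 and 15, which resembled the other arrays least, Lama5 was at -0.24 ± 0.06 and Mmp13 at -0.35 ± 0.09 (n = 12). Centring, scaling and quantile normalization of the arrays left Lama5 between -0.30 and -0.29 and Mmp13 between -0.43 and -0.37. Array weights gave -0.22 and -0.38.

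As deposited, no relation between both genes over the arrays passed a permutation test. Pearson's r of Lama5 with Mmp13 was -0.028 over 15 arrays and Spearman's rho -0.063 (two-sided permutation p = 0.959 and 0.827, 0.959 for both after Benjamini-Hochberg adjustment over these 2 measures). Within the orientations r was 0.41 with the treated RNA in Cy5 (exact permutation p = 0.307, n = 8) and -0.17 with it in Cy3 (exact permutation p = 0.725, n = 7). Without arrays 15 and 5, the farthest from the median of Lama5, r was 0.35 (permutation p = 0.242, n = 13). Array 2 was low for both genes (-0.43 and -1.03), array 6 was near 0 for both (0.001 and -0.036), and array 5 combined the highest Lama5 value with -0.60 for Mmp13. With few arrays, a moderate relation could go unseen. With the dye swaps turned, r was 0.72 (permutation p = 0.00136), where both genes lie mostly below 0 in one orientation and mostly above 0 in the other. That r and its p reflect these opposite means, as the permutation mixes the orientations. They do not test whether the genes vary together.

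**Figure D3:**
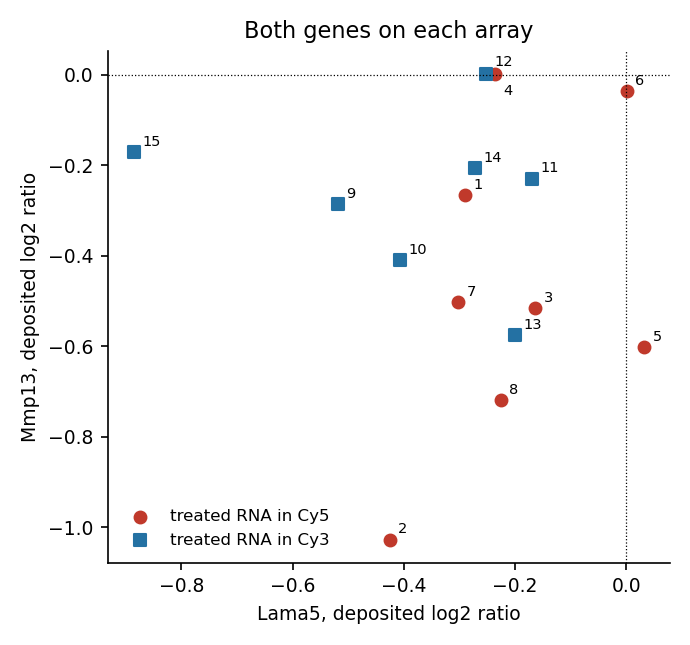
Log2 ratio of Mmp13 against that of Lama5 on each array (numbers are array titles; red circles, treated RNA in Cy5; blue squares, in Cy3). The points show no line: array 15 is lowest for Lama5 and at -0.17 for Mmp13, and array 2 is lowest for Mmp13 and at -0.43 for Lama5.

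Among 8296 genes with values on all arrays, the 5 whose ratios followed Lama5 most closely were Myom3, a myomesin of the sarcomere (r = 0.933), Hacd3, an enzyme of very long fatty acid synthesis (0.887), Elane, neutrophil elastase (0.886), Mcm7, a subunit of the replicative helicase (0.873), and Zyx, zyxin of focal adhesions (0.872). Without array 15, on which Lama5 was lowest, these r were 0.845, 0.726, 0.715, 0.676 and 0.675. For Mmp13 they were Nsa2-ps1, annotated as a pseudogene (0.820), Srp68, of the signal recognition particle (0.812), St13, an Hsp70 cochaperone (0.799), Anapc10, of the anaphase-promoting complex (0.789), and Pcdh7, a protocadherin (0.763). Without array 2 they were 0.703, 0.679, 0.766, 0.648 and 0.586, and among the dye swaps alone Srp68 was at 0.165. Leaving out these arrays, and turning the swaps for lists, families and ranks, was chosen after seeing the data. These are the highest of 8296 correlations over shared arrays and are given as a description. The treatment estimates of the Mmp13 companions lay between -0.02 and 0.10, so they shared its pattern over arrays while lying near 0 in the mean. Myom3 was at -0.30 ± 0.12 (SE) and the other Lama5 companions lay between -0.20 and -0.10. Neither gene was near the other in this order, since 4400 genes were more like Lama5 than Mmp13 was.

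As deposited, laminin chains lay on both sides of 0. Of 11 chains, 6 were measured, and 3 of these were above 0 and 3 below; none passed limma's test. Beside Lama5 there were Lama1, the alpha chain of the earliest embryonic basement membranes, at -0.09 ± 0.08 (SE), and Lama4, the alpha chain of vessels, at 0.41 ± 0.26, with values from -0.995 to 3.21. Lamc1, the gamma chain with which alpha 5 usually pairs, was at -0.18 ± 0.10, and its 3 probes were at -0.14, -0.17 and -0.18. Its orientations differed in sign, with means of -0.51 in Cy5 and 0.16 in Cy3. Lamb2, a beta chain of muscle and kidney, was at 0.04 ± 0.16 and Lamc3 at 0.05 ± 0.14. The other 5 chains had a median of 0.040, against 0.0054 over all genes, and 2 of them were below 0, as they were after centring, scaling and quantile normalization. With the dye swaps turned, all 5 would lie below 0 (from -0.44 to -0.069) and Lama5 above. Only 1 of the 5, Lama4, had the same sign in both orientations. Of the 9718 genes tested other than Lama5 and Mmp13, 3847 had it. Lama5 had it as well, but as it was chosen on these ratios, nothing is read from that. Subtracting 1 probe's ratio from another's was not done, so whether Lama5 differs from these chains was not tested.

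**Figure D4:**
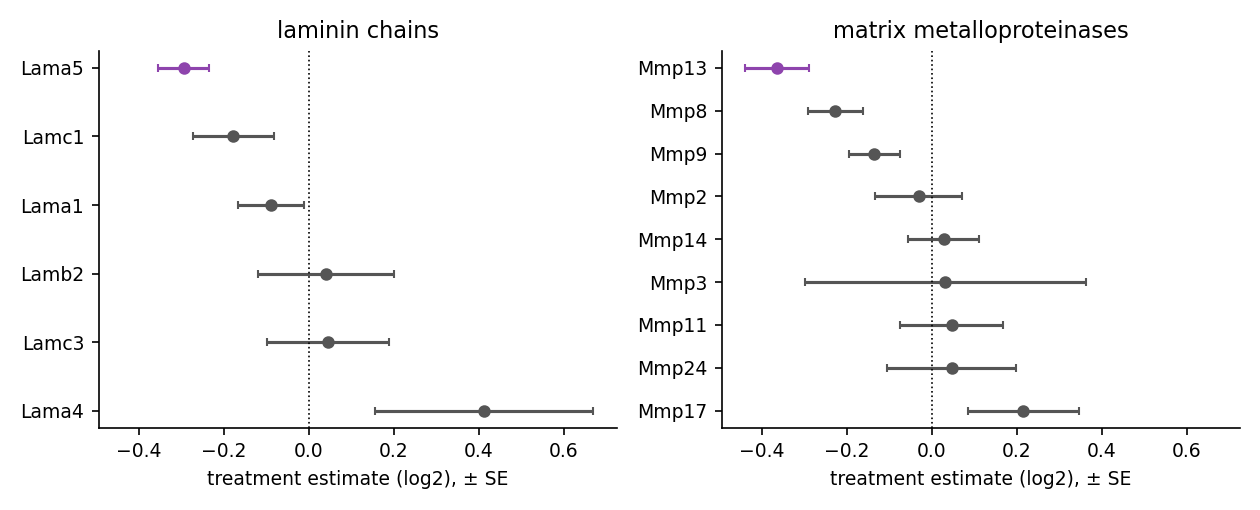
Treatment estimate (log2) with SE for the 6 measured laminin chains (left) and the 9 tested matrix metalloproteinases (right), over 15 arrays (fewer where values are missing). Lama5 (-0.29) and Mmp13 (-0.36), in purple, are the lowest of their families as deposited; Lama4 (0.41) and Mmp17 (0.22) are the highest. With the dye swaps turned Lama5 (0.092) would be the highest chain and Mmp13 the 4th from the lowest, and after quantile normalization Mmp24 lies below 0.

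The partners and receptors of laminin lay around 0. Of 9 tested partners in the basement membrane, 5 were below 0, with a median of -0.0083, and none passed; after scaling of the arrays 4 were below and after centring 6. The largest by moderated t were Frem2, a Fraser complex protein (0.34 ± 0.26, SE), the collagen IV chain Col4a1 (-0.10 ± 0.08) and Col18a1, the source of endostatin (-0.11 ± 0.10). Of 11 tested receptors, 6 were below 0, with a median of -0.00028, and none passed; under each of the 3 scalings 7 were below, and with the dye swaps turned 3 were. Dag1, dystroglycan, was at 0.11 ± 0.06, Bcam, a receptor that binds the alpha 5 chain, at 0.09 ± 0.07, and Itgb1, the beta chain of most laminin-binding integrins, at 0.06 ± 0.05.

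Among the matrix metalloproteinases as deposited, Mmp13 had the lowest estimate, followed by Mmp8, the collagenase of neutrophils. With the dye swaps turned, Mmp11 (-0.28), Mmp14 (-0.26) and Mmp3 (-0.097) would lie below Mmp13 (-0.095), and Mmp8 would be highest at 0.21. Of 23 enzymes 10 were on the array and 9 were tested, 5 above 0 and 4 below, and none passed limma's test. Mmp23 was on the array but had values on too few arrays to be tested. Mmp8 was at -0.23 ± 0.07 (SE) and below 0 on 12 of 15 arrays, but its mean was -0.013 in Cy5 and -0.44 in Cy3. Mmp9, a gelatinase, was at -0.13 ± 0.06, with orientation means of -0.14 and -0.13 and its 2 probes at -0.09 and -0.17. Mmp2, the other gelatinase, was at -0.03 ± 0.10 and Mmp14, the membrane-bound activator of Mmp2 and Mmp13, at 0.03 ± 0.08, though its 2 probes fitted alone were at -0.02 and 0.0018, 1 of them with values on 14 arrays. Mmp3, stromelysin, was at 0.03 ± 0.33 with values on 12 arrays, Mmp11 at 0.05 ± 0.12, Mmp24 at 0.05 ± 0.15 and Mmp17 at 0.22 ± 0.13. Without Mmp13 the median of the 8 was 0.030, and 3 were below 0, or 4 after quantile normalization, where Mmp24 turned.

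Inhibitors, activators and related proteases gave no call either. Timp4, an inhibitor of metalloproteinases, was at 0.17 ± 0.06 (SE) and above 0 on 13 arrays, Timp2 at -0.13 ± 0.07, and Furin, a convertase that activates proproteins, at -0.11 ± 0.05. Of the 8 tested genes of this list 3 were below 0, with a median of 0.038. Adam8, a membrane protease of leukocytes, was at -0.32 ± 0.08 and below 0 on 13 arrays, with means of -0.10 in Cy5 and -0.53 in Cy3. Adam12 was at 0.15 ± 0.10 and Adam17, which sheds tumour necrosis factor, at 0.08 ± 0.06. Of 7 tested ADAM and ADAMTS genes 4 were below 0, with a median of -0.046.

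Of 11 tested substrates of Mmp13, fibrillar collagens and other matrix genes, 8 were above 0, with a median of 0.067, where 52% of all genes were; none passed. After quantile normalization 7 of 11 were above, and with the dye swaps turned 4 were. Col5a1, a minor fibrillar collagen, was at 0.19 ± 0.09 (SE), Tnc, tenascin C, at 0.16 ± 0.08 and Col3a1 at 0.12 ± 0.07. Of the inducers and transcription factors known for Mmp13, 10 of 18 were tested, 5 on each side of 0, with a median of -0.014; after centring 7 were below. Etv4, an ETS factor, was at 0.25 ± 0.07 and above 0 on 13 arrays, Jun, a subunit of AP-1, at 0.23 ± 0.07 and above 0 on 13 arrays, and Junb at 0.18 ± 0.17. Runx2 was not among the tested genes.

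**Figure D5:**
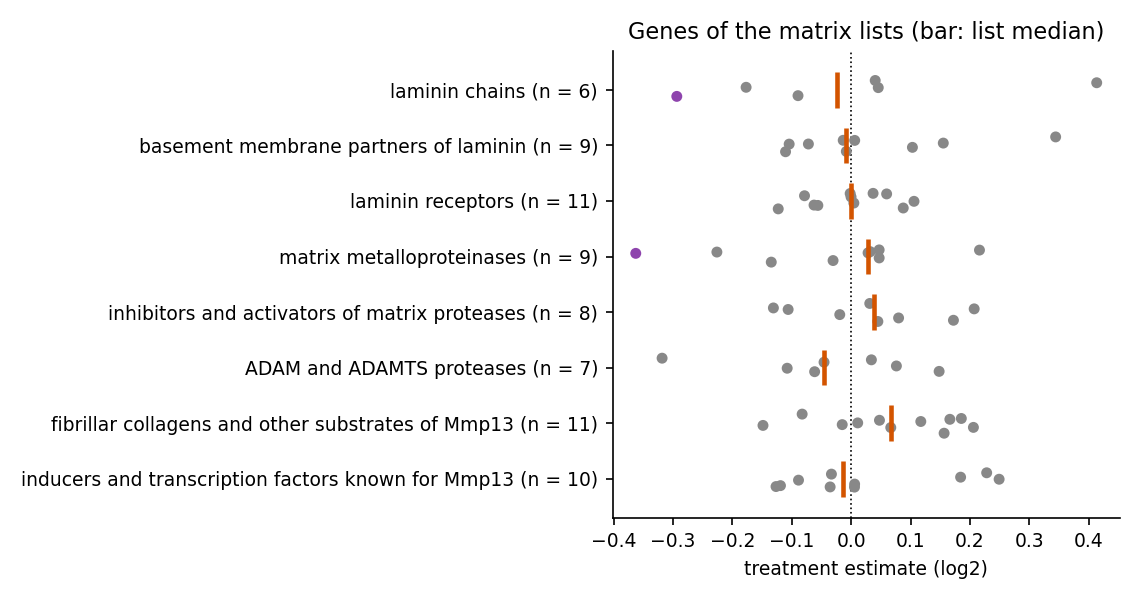
Treatment estimates (log2) of the tested genes in 8 lists around laminin and Mmp13; each point is a gene, Lama5 and Mmp13 are purple, and orange bars are list medians, members included. As deposited, medians lie between -0.046 and 0.067, and the points of every list fall on both sides of 0.

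Over the 8 lists, Lama5 and Mmp13 left out, limma called 0 of 69 tested genes after adjustment over all genes. Unadjusted, p was under 0.05 for 7 (10.1%), Adam8, Etv4, Furin, Jun, Mmp8, Mmp9 and Timp4, as it was for 7.02% of all genes. Below 0 lay 44.9% of the 69 and 48% of all genes.

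Markers of cell types were set beside these values, and their part in them was not tested. They are markers of other cells that can bring laminin or collagenase RNA, and pluripotent and lymphoid markers, which the line's name points to. Of the 47 tested markers in 7 lists limma called 0, with 3 at an unadjusted p under 0.05 (S100a4, Esrrb and Ptprc), which is 6.38% against 7.02% of all genes. Of the 47, 27 (57.4%) were below 0, against 48% of all genes. S100a4, a calcium-binding protein of the fibroblast list, was at -0.16 ± 0.05 (SE) and below 0 on 14 of 15 arrays. In that list 6 of 11 genes were above 0. Esrrb, a pluripotency factor, was at 0.45 ± 0.17, with means of 0.17 in Cy5 and 0.72 in Cy3. In its list 3 of 7 genes were below 0, Pou5f1 (-0.39 ± 0.22), Zfp42 (-0.09 ± 0.17) and Sox2 (-0.0061 ± 0.085). Ptprc, CD45, was at 0.19 ± 0.05, with means of -0.0031 in Cy5 and 0.39 in Cy3. Fibroblast and feeder markers had a median of 0.011 (11 genes, 5 below 0), those of osteoblasts and chondrocytes 0.0023 (4 genes, 2 below) and endothelial ones -0.062 (6 genes, 5 below). Epithelial and endoderm markers were at -0.073 (9 genes, 7 below), myeloid markers at -0.033 (5 genes, 3 below), pluripotent markers at 0.052 (7 genes, 3 below) and lymphoid markers at 0.11 (5 genes, 2 below). Each of the 3 scalings put 4 myeloid markers below 0. With the dye swaps turned, 4 fibroblast, 3 osteoblast and chondrocyte, 4 endothelial and 5 epithelial and endoderm markers would lie below 0. So would 1 myeloid, 4 pluripotent and 3 lymphoid markers. Over arrays, the median of the fibroblast list ranged from -0.17 to 0.35 and was below 0 on 7 arrays, that of the endothelial list from -0.22 to 0.21 and on 10, and that of the epithelial and endoderm list from -0.31 to 0.18 and on 6. The myeloid median ranged from -0.23 to 0.30 and was below 0 on 10, the osteoblast and chondrocyte median from -0.21 to 0.17 and on 7. The pluripotent median ranged from -0.255 to 0.40 and was below 0 on 8, the lymphoid median from -0.27 to 0.41 and on 6.

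The order of genes on the chromosomes, taken from the GRCm38.p6 table, was looked at last. Lama5, on chromosome 2, lies 5 protein-coding genes away from Slco4a1, an organic anion transporter that is among the 4 genes limma called (-0.42 ± 0.06, SE; below 0 on 14 arrays). The 4 tested genes within 5 places of Lama5 other than Slco4a1 were Rps21 (-0.02 ± 0.07), Mtg2 (-0.02 ± 0.13), Osbpl2 (-0.13 ± 0.20) and Ss18l1 (0.09 ± 0.10), and none of them passed. Mmp13, on chromosome 9, sits at the edge of a cluster of metalloproteinase genes, of which Mmp3 was the 1 tested within 5 places. On its other side Dcun1d5 was at 0.05 ± 0.07, Dync2h1 at -0.16 ± 0.17 and Pdgfd at 0.14 ± 0.25. These neighbours were named after their values were seen.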

How the data were processed

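The authors deposited a table of log2 ratios of the 2 channels of each array, 20205 probes by 15 arrays. That the scale is log2 follows from the values; how the authors normalized, corrected background and filtered spots is not given in the sources used. Between 19213 and 19973 probes per array had a value; array medians lay between -0.019 and 0.063. Scanner intensities were not analysed here, so signal over background is unknown; precision is limited by how many arrays there are. Values with an absolute log2 ratio above 10 (placeholders near the log2 of 100000) were set missing.

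In the platform annotation 13891 probes had 1 symbol, 5 had several and 6309 had none; 13855 were matched to RefSeq (GRCm38.p6) by Entrez number. Probes of a gene were averaged per array, and genes measured on 4 or more arrays per orientation were fitted in limma 3.58.1 (R 4.3.3; lmFit, eBayes, no further normalization), with a treatment and a dye term and two-sided tests. The fit was also run on simulated data. These had equal noise on all arrays and shifts larger than the estimates of both members, so they do not vouch for the fit here. The dye term and the reading of the ratio as deposited follow an earlier look at these data. Correlations used 100000 permutations, or all of them under 10 arrays (scipy 1.17.1).

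The members and lists were chosen with earlier results of these data known. Named were both members, all tested laminins and metalloproteinases, and the 5 genes most correlated with each member. Of each other list around laminin and Mmp13, the 3 genes of largest absolute moderated t were named. Of the cell type markers, those with an unadjusted p under 0.05 were named, and the pluripotent markers below 0 beside them. Alternatives were other array scalings, orientations, filters, weights, tests and sets of arrays.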

Additional observations from a re-analysis of the deposited data

How the results depend on the processing

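The estimate of Mmp13 stayed below 0 in all 28 alternative fits and that of Lama5 in 27 of 28. The exception was turning the dye swaps, which put Lama5 at 0.092 and Mmp13 at -0.095. It called 254 genes and 545 probes. Treatment and dye components then trade places by construction, and the 254 are the genes whose dye effect passed as deposited. Without turning, the dye effect thus passed for 254 genes and treatment for 4. The median r between arrays of opposite orientations was -0.0576, against 0.0908 among arrays 1 to 8 and 0.0339 among the swaps. The highest r of an array with any other lay between 0.0339 (array 15) and 0.318 (arrays 5 and 6). By this median, ratios were not reproduced across the swap, and the cause was not tested. The tally of signs is no support, since both genes were chosen on these ratios. Fits that changed only placeholders, array coverage or the choice of probe could not move the estimates. Each gene had 1 probe, with a value on all 15 arrays and no placeholder. With single arrays left out, Lama5 ranged from -0.31 to -0.25, Mmp13 from -0.40 to -0.32, the count of genes called by limma from 0 to 7 and that of probes from 4 to 13, against 4 genes and 10 probes with all arrays. By array, gene counts outside 1.5 times the 4 were 0 without array 10, 2 without array 11 and 7 without array 6; probe counts outside 1.5 times the 10 were 4 without array 5 or 8, 5 without array 2 or 15, and 6 without array 11. Treated RNA in Cy5 alone, in Cy3 alone, and limma's treat against 0.5 each gave 0 genes and 0 probes. Without arrays 7, 8 and 15 there were 0 genes and 2 probes. Placeholders left in gave 8 genes, taking for each gene its best covered probe 8, and array weights 11 genes and 28 probes; the cause was not tested.

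The correlation of Lama5 with Mmp13 (r = -0.028) had no stable sign. It was 0.024 after centring, 0.41 with the treated RNA in Cy5, 0.19 without arrays 7, 8 and 15, and 0.35 without the 2 arrays farthest from the median of Lama5, and it ranged from -0.18 to 0.18 with single arrays left out. With the dye swaps turned it was 0.72 (permutation p = 0.00136). Turning puts both genes mostly below 0 in one orientation and mostly above 0 in the other, so this p is no test of a relation. The r of Nsa2-ps1 with Mmp13 fell from 0.820 to 0.703 without array 2. No paired analysis was possible because all arrays form 1 group and each array already sets both RNAs against each other.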
